A study of Mus musculus with 22 samples.

Results

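The comparison set 1 pooled RNA library of R1 mouse embryonic stem (ES) cells depleted of HP1alpha, the product of Cbx5, against the libraries of the same cells depleted of HP1beta (Cbx1) or of HP1gamma (Cbx3). It covered skipped-exon events, each an internal exon that a transcript includes or skips. An event was a member if it was listed in the 3 files and had at least 20 reads that distinguish inclusion from skipping, both in the HP1alpha library and in the HP1beta and HP1gamma libraries summed. Of the 10873 events of the series 7053 were listed in the 3 files, and 5726 of these, covering 5473 distinct exons, met the rule. The other 1327 had too few distinguishing reads and were not tested.

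Wild-type (WT) R1 cells received 90 nM siRNA against HP1alpha, HP1beta or HP1gamma for 48 h, grown on gelatin with LIF and without feeder cells, and 2 replicates of each were sequenced as 101-base paired reads. Per the labels' file assignments, the authors pooled both replicates of a group into 1 splicing summary, so no value below has a replicate error. Every library came from transfected cells and no library of cells with a non-targeting siRNA was analysed here, so HP1alpha loss was read against the loss of another HP1 protein and not against intact HP1. Both triple knock-downs also received HP1alpha siRNA: WT cells had 60 nM against each of the 3 proteins, and TKO cells, which lack the DNA methyltransferases (Dnmt1/3a/3b triple knockout), had 80 nM against HP1alpha, 80 nM against HP1beta and 120 nM against HP1gamma. Untransfected WT and TKO libraries had 50-base reads, and are quoted as values without comparison.

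HP1 proteins are small chromatin proteins with a chromodomain that binds methylated lysine 9 of histone H3, a hinge, and a chromoshadow domain through which they dimerise and recruit partners. In mouse cells HP1alpha and HP1beta are enriched at pericentric heterochromatin, while HP1gamma is also found along active genes, where HP1 proteins have been linked to the choice of exons. HP1alpha is the form best known for compacting chromatin, and whether its loss changes a set of exons apart from the loss of the other forms is the question the comparison addresses.

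The HP1alpha, HP1beta and HP1gamma files held 9750348, 8907552 and 7383028 event reads, of which 56.9%, 55.6% and 54.9% fitted neither isoform. The median tested exon had 115 distinguishing reads in the HP1alpha library and 183 in the other libraries summed. Among ES cell markers 7 of 15 had an event in the 3 files (Klf4, L1td1, Sall4, Tbx3, Tcl1, Tdh and Zfp42), with summed event reads of 4787 RPM (reads scaled to the library total over the events listed in the 3 files) in the HP1alpha, 4536 in the HP1beta and 4558 in the HP1gamma library. Of the fibroblast markers 1 of 10 was listed (Fn1, with 443, 349 and 354 RPM in the same libraries), of the endoderm markers 1 of 10 (Col4a1, with 23.4, 22.7 and 26.6), and of 5 trophoblast and 5 neural markers 0. Every listed event had at least 100 reads. An unlisted gene had no event listed in all 3 files, which is not a level of 0. Why an event was missing was not tested.

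Among the 3651 genes with an event in the 3 files, Cbx5 had the lowest event reads in the HP1alpha library relative to either other library. Another 27 events were listed in the HP1beta and HP1gamma files but not in the HP1alpha file, so they are outside this ranking. Their reads, in the lower of those files, had a median of 156 and a maximum of 1227. Events missing from 1 file alone numbered 55 for HP1beta and 640 for HP1gamma. Its most covered event, around the 100-base exon at chr15:103215022-103215121 (mm10), had 419 reads in the HP1alpha library, against 981 in the HP1beta and 774 in the HP1gamma library. Scaled to the library, that was 43.9 RPM (exact Poisson 95% interval 39.8 to 48.4) after HP1alpha knock-down, against 112 (105 to 119) after HP1beta and 105 (98.1 to 113) after HP1gamma knock-down. The ratio of the HP1alpha library to the other libraries summed was 0.404 (conditional binomial 95% interval 0.362 to 0.450), and intervals on reads cover counting error only. Most of these reads fitted neither isoform, 374 in the HP1alpha, 818 in the HP1beta and 658 in the HP1gamma library. Without them the ratio was 0.282 (0.201 to 0.387). Of 3651 genes with an event in the 3 files, Cbx5 ranked 1 from the bottom in the ratio to HP1beta and 1 in the ratio to HP1gamma. The intervals of the HP1alpha library lay far below those of both others, whose ratio to each other was 1.06 (HP1beta over HP1gamma, 0.964 to 1.17).

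The other HP1 genes were set against the library in which neither of the compared siRNAs targeted them. Cbx1 had 1556 RPM in the HP1alpha library, 515 in the HP1beta library that targets it and 1633 in the HP1gamma library, a ratio of HP1alpha to HP1gamma of 0.953 (0.930 to 0.976). Cbx3 had 50.8 RPM in the HP1alpha library, 52.9 in the HP1beta library and 32.4 in the HP1gamma library that targets it, a ratio of HP1alpha to HP1beta of 0.959 (0.843 to 1.09). Each HP1 gene was thus lowest in the library of its own siRNA. Most reads of these genes also fitted neither isoform, at 13769 of 14837 for Cbx1 and 390 of 484 for Cbx3 in the HP1alpha library. Cbx3 has near-identical copies in the genome, so its reads are uncertain.

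**Figure D1:**
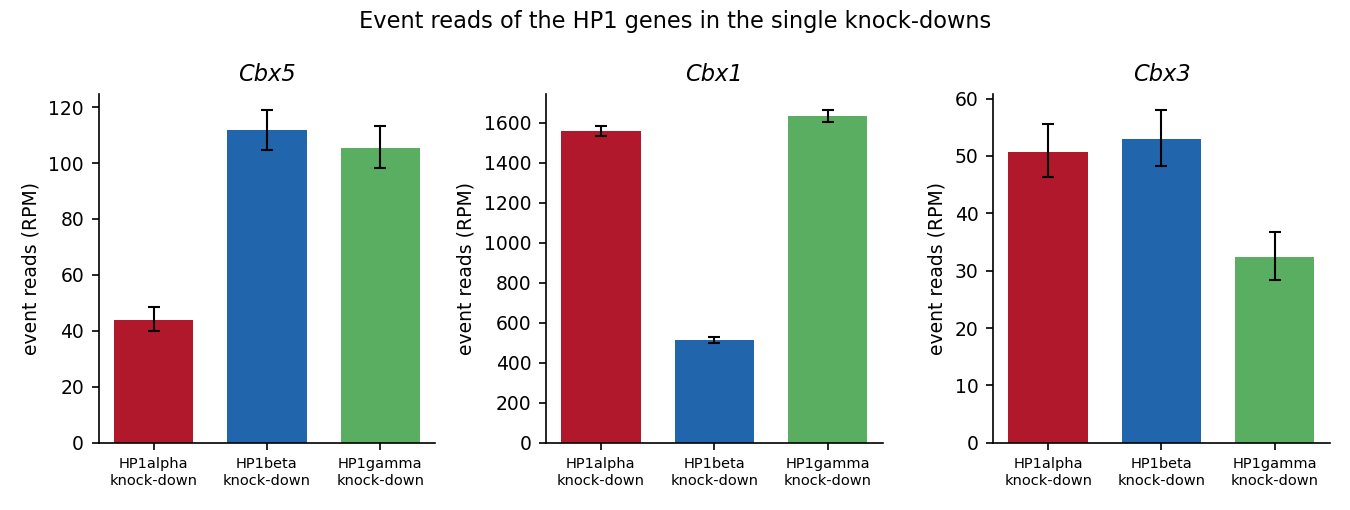
Event reads in RPM (vertical axis, from 0) of Cbx5, Cbx1 and Cbx3 in each single knock-down library, with exact Poisson 95% intervals as bars. Cbx5 was at 43.9 in the HP1alpha library, against 112 and 105 in the other libraries.

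Scaled to the events that the triple knock-down files list as well, Cbx5 had 45.6 RPM after HP1alpha knock-down, 57.0 (50.4 to 64.4) in the WT and 51.9 (46.8 to 57.4) in the TKO triple knock-down, 116 after HP1beta and 109 after HP1gamma knock-down. Cbx5 was thus low in each of the libraries that received HP1alpha siRNA. Inclusion of the Cbx5 exon itself was 0.38 (deposited interval 0.22 to 0.57) in the HP1alpha, 0.27 (0.20 to 0.35) in the HP1beta and 0.41 (0.31 to 0.53) in the HP1gamma library. These intervals overlapped, and the two-sided Fisher's exact test gave p = 0.821 for 20 inclusion and 7 skipping reads in the HP1alpha library.

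No exon differed in inclusion by the rule of the comparison. An exon was called when the two-sided Fisher's exact test of inclusion-only and skipping-only reads had a Benjamini-Hochberg adjusted p of at most 0.05 over the 5726 exons and the inclusion level, the authors' deposited fraction of transcripts with the exon, lay at least 0.1 from the mean of the other levels. By that rule 0 exons (0%) were higher and 0 (0%) were lower in the HP1alpha library. At an adjusted p alone, 1 exon (0.0175%) passed, and at an unadjusted p of at most 0.05 there were 162 (2.83%), of which 65 (1.14%) had a higher and 97 (1.69%) a lower share of inclusion reads. With limma on the log odds, which takes the HP1beta and HP1gamma libraries as samples of 1 group and needs at least 3 reads of each class, 2 of 3248 exons had an adjusted p of at most 0.05, in Tpt1 and Immt, and 140 an unadjusted one. With an odds ratio of no change set per class of exon length, Fisher's exact test passed 1 exon at the adjusted and 160 at the unadjusted threshold.

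The median absolute difference in level was 0.015 and the 95th percentile was 0.12, so most exons sat close to the diagonal in the plot of levels. The median was 0.005 over the 1365 exons with a mean level below 0.1 in the other libraries and 0.01 over the 1957 above 0.9. Over the 2404 exons between these levels the median was 0.0425 and the 90th percentile 0.125. A difference of 0.1 or more was seen at 419 exons (7.32%), 246 with a higher and 173 with a lower level after HP1alpha knock-down. The 95% interval of the difference in inclusion share (Newcombe's method) lay within 0.1 on either side of 0 for 4027 exons (70.3%) and within 0.2 for 5260 (91.9%). Among the 1183 exons with an intermediate share, it lay within 0.1 for 269 (22.7%) and within 0.2 for 806 (68.1%). For most of these exons the interval thus reached a difference of 0.1 or more, so a shift of that size was not excluded there.

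**Figure D2:**
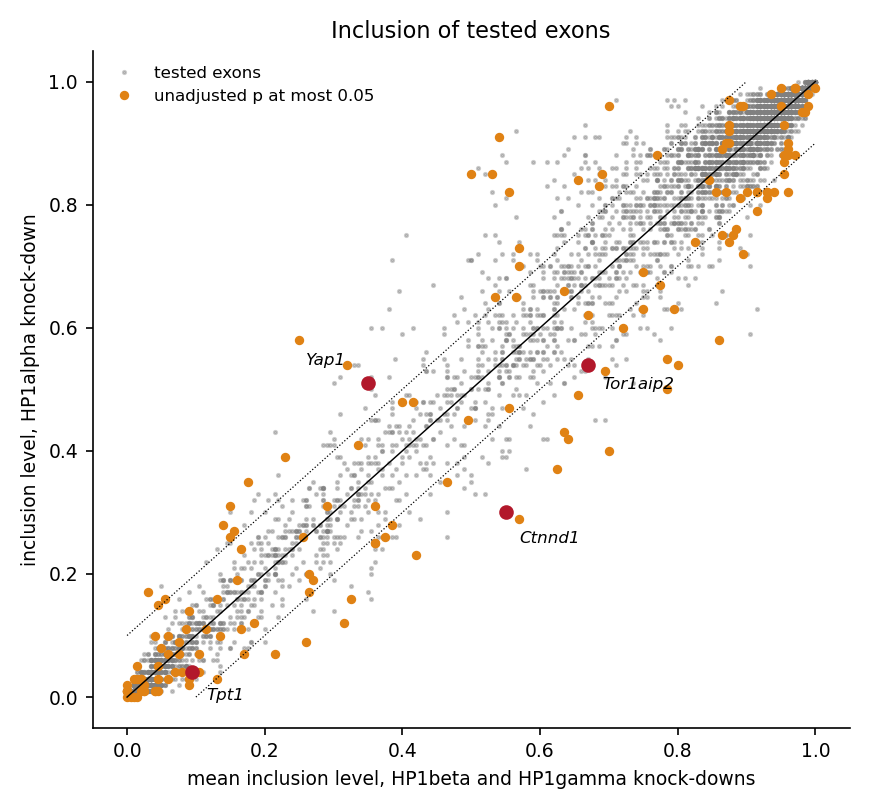
Inclusion level of each tested exon in the HP1alpha knock-down (vertical axis) against the mean level in the HP1beta and HP1gamma knock-downs (horizontal axis), with the diagonal and dotted lines 0.1 from it. Orange points are the 162 exons with an unadjusted p of at most 0.05, and the named red points are exons described in the text, such as Yap1 at 0.51 and Ctnnd1 at 0.30.

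The exon that passed the adjusted p was in Tpt1, which encodes the abundant translationally controlled tumour protein. It is the 74-base exon at chr14:75845617-75845690 on the plus strand. It had 149 inclusion and 391 skipping reads in the HP1alpha library, against 418 and 295 in the HP1beta and 374 and 326 in the HP1gamma library. The share of inclusion reads was lower by 0.28 (Newcombe 95% interval of the difference -0.33 to -0.24), with an adjusted p of 2.2e-26 by Fisher's exact test. The deposited level was 0.04 (0.03 to 0.04) in the HP1alpha, 0.10 (0.09 to 0.10) in the HP1beta and 0.09 (0.08 to 0.10) in the HP1gamma library, a difference of -0.055 that is under the 0.1 of the rule. In the triple knock-downs, which also received HP1alpha siRNA, the level was 0.11 (0.09 to 0.12) in WT cells, above the HP1beta and HP1gamma libraries, and 0.07 (0.05 to 0.08) in TKO cells, below both. The TKO triple knock-down had 89 inclusion and 0 skipping reads there, and the WT one 248 and 140. The untransfected WT and TKO libraries, which had shorter reads, both had a level of 1. Their reads were 28735 for inclusion and 0 for skipping in WT cells, and 13515 and 0 in TKO cells. Why these levels lay far from those of the knock-down libraries was not tested. Tpt1 has many near-identical copies in the mouse genome, so the origin of its reads is uncertain.

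Set against each other library alone, the HP1alpha library gave 1 called exon (0.0181% of 5536, higher) against HP1beta and 0 (0% of 5290) against HP1gamma, with 147 exons at an unadjusted p of at most 0.05 in each case (2.66% and 2.78%). At an adjusted p alone there were 3 in each case (0.0542% and 0.0567%). The called exon was the 15-base exon of Immt, a scaffold protein of mitochondrial cristae, at chr6:71866726-71866740. It was included at 0.82 (0.78 to 0.86) after HP1alpha, 0.28 (0.20 to 0.35) after HP1beta and 0.83 (0.79 to 0.87) after HP1gamma knock-down, so it sets the HP1beta library apart and not the HP1alpha library. Between the HP1beta and HP1gamma libraries the same exon was the 1 called of 5272 (0.019%, lower in HP1beta), with 4 (0.0759%) at an adjusted p alone and 139 (2.64%) at an unadjusted p. Past the adjusted p alone against HP1gamma were Tpt1, Srsf7 and the non-coding Meg3, the last with levels of 0.03, 0.02 and 0.02 in the HP1alpha, HP1beta and HP1gamma libraries.

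The same rule with another library in the first place gave counts of the same size. HP1beta knock-down against the other libraries had 1 called exon (Immt, lower, 0.0178%) of 5621, 4 (0.0712%) at an adjusted p alone and 169 at an unadjusted p (3.01%). HP1gamma knock-down had 0 called of 5333 by Fisher's exact test, 4 (0.075%) at an adjusted p alone and 159 (2.98%) at an unadjusted p. These comparisons share libraries with that of HP1alpha, and the differences between their counts were not tested. Over the 5726 exons, the HP1alpha level was at least 0.1 above both others at 125 exons and below both at 98. The HP1beta level was above at 91 and below at 124, and the HP1gamma level above at 87 and below at 198.

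At 10 exons (3 higher, 0.0571% and 7 lower, 0.133% of 5250 with enough reads in each library), the HP1alpha library differed from each of the other libraries at an unadjusted p of at most 0.05 by Fisher's exact test with a level difference of at least 0.1. By the same rule 6 exons were higher (0.114%) and 3 lower (0.0571%) for HP1beta, and 4 higher (0.0762%) and 7 lower (0.133%) for HP1gamma. The higher exons were in Yap1, Edc3 and Ambra1. The lower ones were in Tor1aip2, Ctnnd1, Dmtn, Atp2a3, Aasdh and Tsku and in a region without an annotated gene at chr1:63581137-63581227. Their values are descriptions, since each missed the adjusted threshold against the summed libraries.

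Yap1 encodes a transcriptional coactivator controlled by the Hippo pathway. Its 48-base exon at chr9:7950492-7950539 on the minus strand had a level of 0.51 (0.45 to 0.58) after HP1alpha, 0.36 (0.29 to 0.43) after HP1beta and 0.34 (0.27 to 0.41) after HP1gamma knock-down. The reads were 140 for inclusion and 75 for skipping in the HP1alpha library, against 81 and 80 in the HP1beta and 62 and 70 in the HP1gamma library. The HP1alpha interval lay above both others (Fisher's exact test p = 2.94e-04 before and 0.21 after adjustment). In the triple knock-downs the level was 0.41 in WT and 0.37 in TKO cells, and the untransfected WT and TKO libraries had 0.41 and 0.45.

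Ctnnd1 encodes p120-catenin, which stabilises cadherins at cell junctions. Its 18-base exon at chr2:84612532-84612549 had 28 inclusion and 49 skipping reads after HP1alpha knock-down, against 44 and 27 after HP1beta and 37 and 22 after HP1gamma knock-down. The levels were 0.30 (0.21 to 0.40), 0.55 (0.43 to 0.66) and 0.55 (0.43 to 0.67) in the same order, with the HP1alpha interval below both others (Fisher's exact test p = 3.32e-04, adjusted p = 0.211). The WT triple knock-down had 0.39 (0.25 to 0.56) and the TKO triple knock-down 0.52 (0.38 to 0.67). The untransfected WT and TKO libraries had 0.37 (0.31 to 0.43) and 0.53 (0.47 to 0.60).

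Tor1aip2, whose product activates torsin ATPases, had events at more than 1 exon. The 330-base exon at chr1:156051294-156051623 had a level of 0.54 (0.50 to 0.59) after HP1alpha knock-down, against 0.67 (0.62 to 0.72) after HP1beta and 0.67 (0.60 to 0.72) after HP1gamma knock-down (Fisher's exact test p = 1.38e-04, adjusted p = 0.132). Its reads were 825 for inclusion and 122 for skipping in the HP1alpha library, against 890 and 80 in the HP1beta and 677 and 60 in the HP1gamma library. The 60-base exon at chr1:156041075-156041134 lay the other way, at 0.48 (0.45 to 0.51) after HP1alpha, 0.41 (0.38 to 0.44) after HP1beta and 0.39 (0.36 to 0.43) after HP1gamma knock-down (Fisher's exact test p = 7.77e-05, adjusted p = 0.132). The triple knock-downs did not share the lower level of the long exon, with 0.68 in WT and 0.67 in TKO cells. At the 60-base exon they had 0.43 (0.39 to 0.47) in WT and 0.44 (0.39 to 0.49) in TKO cells. Both of these levels lay above those of the HP1beta and HP1gamma libraries, with overlapping intervals. In the untransfected WT and TKO libraries the long exon had 0.99 and 1, and the 60-base exon 0.38 and 0.39.

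Dmtn, which encodes the actin-bundling protein dematin, had a 75-base exon at 0.75 (0.70 to 0.80) after HP1alpha, 0.87 (0.82 to 0.91) after HP1beta and 0.86 (0.81 to 0.91) after HP1gamma knock-down, with 0.80 and 0.81 in the WT and TKO triple knock-downs. Edc3, an enhancer of mRNA decapping, had a 320-base exon at 0.88 (0.82 to 0.92), 0.76 (0.69 to 0.82) and 0.78 (0.70 to 0.85) in the HP1alpha, HP1beta and HP1gamma libraries. Ambra1, a regulator of autophagy, had an 87-base exon at 0.83 (0.76 to 0.90), 0.73 (0.64 to 0.82) and 0.64 (0.52 to 0.76). Atp2a3, a calcium pump of the endoplasmic reticulum, had an 86-base exon at 0.26 (0.17 to 0.37), 0.38 (0.24 to 0.55) and 0.37 (0.22 to 0.52), from 21, 22 and 17 inclusion and 24, 8 and 6 skipping reads. Aasdh and Tsku had low levels, at 0.07 and 0.03 in the HP1alpha library, 0.19 and 0.13 in the HP1beta library and 0.24 and 0.13 in the HP1gamma library, from 3 and 1 inclusion reads in the HP1alpha library. Of the better covered ones, Dmtn had an HP1alpha interval just below that of HP1beta and of HP1gamma, while the intervals of Edc3 and Ambra1 touched or overlapped that of at least 1 other library.

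Among exons with a level at least 0.1 beyond both other libraries, the 12 with the smallest p in each direction are shown in the plot of levels with intervals. The 12 higher ones differed from the mean of the others by 0.11 to 0.37 and the 12 lower ones by 0.105 to 0.28, with Fisher's exact test p between 1.38e-04 and 0.029 before adjustment. The largest difference was at Kctd9. It encodes a protein with a potassium channel tetramerisation domain, and its exon had 0.91 (0.72 to 0.99) after HP1alpha, 0.57 (0.38 to 0.76) after HP1beta and 0.51 (0.25 to 0.84) after HP1gamma knock-down, from 49, 34 and 11 inclusion and 0, 4 and 2 skipping reads. Ktn1, which encodes the kinesin receptor kinectin, had 0.31 (0.20 to 0.45), 0.11 (0.06 to 0.17) and 0.19 (0.11 to 0.31) in the HP1alpha, HP1beta and HP1gamma libraries, and 0.35 and 0.37 in the WT and TKO triple knock-downs. Epn1, an endocytic adaptor, had 0.25 (0.19 to 0.32), 0.37 (0.28 to 0.47) and 0.35 (0.25 to 0.47), and Alkbh7, a mitochondrial member of the AlkB family, 0.54 (0.49 to 0.60), 0.68 (0.62 to 0.74) and 0.66 (0.59 to 0.72). Each of these 3 overlapped at least 1 of the other intervals. The exon length was a multiple of 3 for 8 of the 12 higher and 6 of the 12 lower exons. Over all tested exons it was so for 2612 of 5726. At each of the 24 the difference in reads had the direction of the difference in level, which the choice by p and level on the same reads favours.

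**Figure D3:**
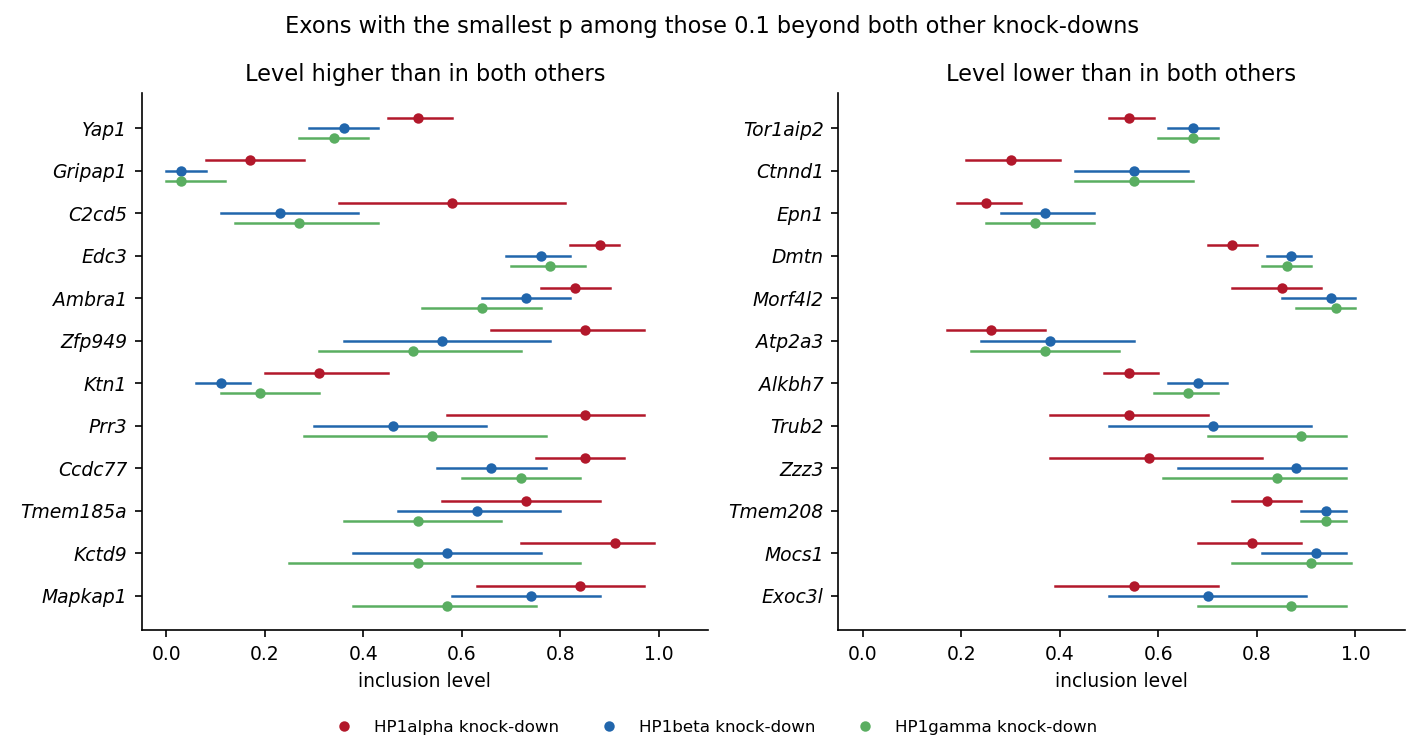
Inclusion level (horizontal axis, points) with the deposited interval (lines) in the 3 single knock-downs for 12 exons whose HP1alpha level was higher and 12 whose level was lower than both others by at least 0.1. The red intervals of Yap1, Tor1aip2, Ctnnd1 and Dmtn lie clear of both others, while each of the rest touches or overlaps at least 1.

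The triple knock-downs, which share the HP1alpha siRNA, were read at the exons that lay 0.1 beyond both others. Of the 107 higher ones listed in the WT triple knock-down, 66 (61.7%) had a level there above both the HP1beta and HP1gamma libraries, and of the 83 lower ones 55 (66.3%) had one below both. The exons chosen in the same way for HP1beta gave 57.5% of 80 higher and 69.9% of 103 lower, and those for HP1gamma gave 56.4% of 78 and 61.3% of 173. In the TKO triple knock-down the shares were 49.5% of 109 higher and 54.9% of 91 lower for HP1alpha, against 62.7% of 83 and 53.1% of 113 for HP1beta and 69.1% of 81 and 58.9% of 180 for HP1gamma. The choice of exons on the single libraries itself favours such shares, and the differences between them were not tested. HP1alpha had the highest share for higher exons in WT cells and the lowest in TKO cells.

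Deposited intervals apart from both other libraries were found at 14 of the 5726 exons for HP1alpha (6 above and 8 below). Over the same exons there were 2 above and 3 below for HP1beta, and 1 above and 8 below for HP1gamma. The HP1alpha file had the most event reads and the narrowest intervals. Over the events listed in the 3 files the median width was 0.13 for HP1alpha, 0.14 for HP1beta and 0.16 for HP1gamma. At 5 of the 14 exons for HP1alpha the distinguishing reads gave an unadjusted p above 0.05 by Fisher's exact test. Plec, which encodes the cytoskeletal linker plectin, had 0.60 (0.57 to 0.63) after HP1alpha, 0.42 (0.39 to 0.44) after HP1beta and 0.32 (0.29 to 0.34) after HP1gamma knock-down at a 3381-base exon. It had 2152 inclusion and 5 skipping reads in the HP1alpha library, 1423 and 1 in the HP1beta library and 925 and 4 in the HP1gamma library. Fisher's exact test gave p = 1.00. Crkl, an adaptor of tyrosine kinase signalling, had 0.97, 0.83 and 0.79 in the HP1alpha, HP1beta and HP1gamma libraries from 616, 409 and 306 inclusion and 2, 6 and 2 skipping reads. Of the exons with an interval apart and an unadjusted p under 0.05, Tomm5, a small subunit of the mitochondrial import channel, had 7 inclusion and 108 skipping reads after HP1alpha, 31 and 94 after HP1beta and 33 and 134 after HP1gamma knock-down. Its levels were 0.01, 0.05 and 0.04 (Fisher's exact test p = 7.18e-05, adjusted p = 0.132), under the 0.1 of the rule. At the exons of Plec and Crkl the level thus differed without a difference in the distinguishing reads that passed Fisher's exact test, and the part of exon length in this was not tested.

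The 162 exons at an unadjusted p were spread over exon types. They made up 2.91% of the 2612 exons whose length is a multiple of 3, which keep the reading frame, and 2.76% of the 3114 others. Their share was 1.59% among the 126 exons of up to 27 bases, 4.36% among the 642 of 28 to 60 bases and 3.59% among the 473 of 250 bases or more. It was 3.91% among the 2404 exons with a level between 0.1 and 0.9 in the other libraries, and 4.51% among the 1241 exons with 300 or more distinguishing reads in the HP1alpha library. The median log2 odds ratio of inclusion was -0.13 over all tested exons, with 0.5 added to each class, and 0.02 over the 1895 exons that had 5 or more reads in every class. The median thus had opposite signs under the 2 counts of exons, and no common direction is read from it.

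Gene lists chosen for the pathway had no called exon by Fisher's exact test, beside 0 of all 5726. At an unadjusted p of at most 0.05, where 2.83% of all tested exons lay, HP1 partners and heterochromatin genes had 1 of 59 exons (1.69%). It was a 295-base exon of Zmym3, a zinc finger protein, with 0.65 (0.51 to 0.79) after HP1alpha, 0.36 (0.26 to 0.46) after HP1beta and 0.71 (0.52 to 0.89) after HP1gamma knock-down, so its difference lay against HP1beta alone. Lists of centromere, cohesin and mitosis genes (43 exons) and of DNA methyltransferases and TET enzymes (6 exons) had 0 at that threshold, germline genes 0 of 5, and interferon and siRNA response genes 0 of 17. Chromatin regulators had 1 of 120 (0.833%), in Morf4l2, and core spliceosome genes 1 of 38 (2.63%), in Snrnp70. Differentiated and fibroblast markers had 1 of 4, in Fn1, fibronectin, at 0.45 (0.42 to 0.48) after HP1alpha, 0.54 (0.50 to 0.58) after HP1beta and 0.45 (0.41 to 0.50) after HP1gamma knock-down, so HP1alpha and HP1gamma had the same level. The median absolute level difference of the lists ran from 0.005 to 0.055, against 0.015 over all tested exons, with the highest value over the 4 exons of the HP1 genes themselves.

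In genes that act on splicing 0 exons were called by Fisher's exact test. Of 64 exons in SR proteins and their kinases 5 (7.81%) had an unadjusted p of at most 0.05, 2 with a higher and 3 with a lower inclusion share, and of 86 exons in hnRNPs and other regulators 4 (4.65%), 3 higher and 1 lower, beside 2.83% of all tested exons. The excess of either list over that share was not tested. Srsf7, an SR protein, had a 460-base exon at chr17:80204622-80205081 with 1076 inclusion and 637 skipping reads after HP1alpha, 823 and 561 after HP1beta and 666 and 569 after HP1gamma knock-down (Fisher's exact test p = 1.00e-04, adjusted p = 0.132). Its levels were 0.07, 0.06 and 0.06. Rsrc2, another of the 5, had 0.09 after HP1alpha, 0.04 after HP1beta and 0.11 after HP1gamma knock-down, so the HP1beta library stood apart there. Clk2, a kinase of SR proteins, had 0 inclusion and 270 skipping reads after HP1alpha knock-down at a 133-base exon, against 7 and 191 after HP1beta and 3 and 193 after HP1gamma knock-down. Hnrnph1 had levels of 0.90, 0.87 and 0.88 and Puf60 of 0.20, 0.28 and 0.25 in the HP1alpha, HP1beta and HP1gamma libraries. The pluripotency list had 2 of 14 exons (14.3%) at that threshold, both overlapping forms of 1 exon of Tdh, threonine dehydrogenase, at 0.96, 0.96 and 0.94 for the more included form.

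The event reads of a gene also give a coarse level of its RNA. By a rule of size, at most 1/1.5 or at least 1.5 times the value in each of the other libraries with a 95% interval apart from 1, 2 of 3651 genes (0.0548%) were lower and 27 (0.74%) higher in the HP1alpha library. With 1 pooled library a group there is no test of these values, and in bulk RNA fewer cells of a type and less RNA per cell cannot be told apart. The same rule gave 2 lower (0.0548%) and 2 higher (0.0548%) for HP1beta, and 42 lower (1.15%) and 0 higher (0%) for HP1gamma. For 2757 genes (75.5%) both ratios of the HP1alpha library had intervals within 1.5-fold of 1.

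The 2 lower genes were Cbx5 itself and Ankrd35, an ankyrin repeat gene. Ankrd35 had 191 event reads (20.0 RPM) after HP1alpha, 318 (36.2 RPM) after HP1beta and 239 (32.5 RPM) after HP1gamma knock-down. Its ratios were 0.553 (0.460 to 0.664) to HP1beta and 0.616 (0.506 to 0.748) to HP1gamma. Over the events of the triple knock-down files as well, it had 20.8 RPM after HP1alpha knock-down, 25.4 in the WT and 73.6 in the TKO triple knock-down, 37.5 after HP1beta and 33.7 after HP1gamma knock-down. Without the reads that fit neither isoform its ratios were 0.860 (0.445 to 1.65) to HP1beta and 1.23 (0.583 to 2.69) to HP1gamma, so it did not pass, nor did it pass at 2-fold, while Cbx5 passed at both settings.

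**Figure D4:**
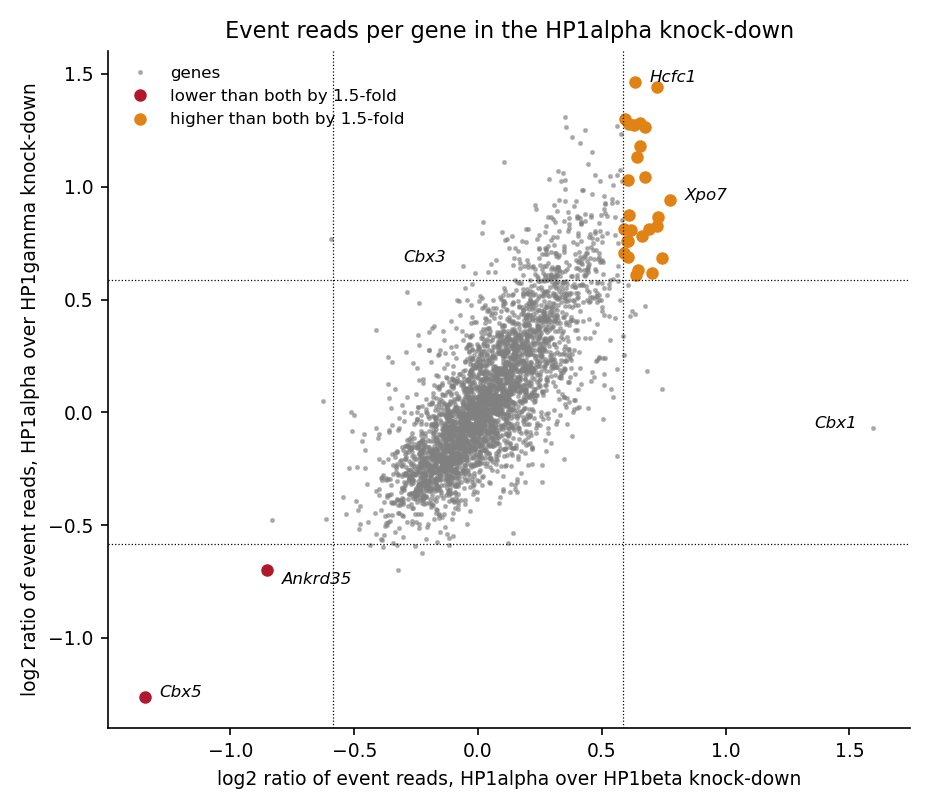
Log2 ratio of scaled event reads of 3651 genes, HP1alpha over HP1beta knock-down (horizontal axis) and HP1alpha over HP1gamma knock-down (vertical axis), with dotted lines at 1.5-fold. Cbx5 and Ankrd35 are the 2 red points at the lower left, and the 27 orange points at the upper right are the genes above both other libraries by 1.5-fold.

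Of the 27 higher genes, the 8 with the largest ratio to the nearer library were Xpo7, Pan3, Eri2, Usp9x, Dnajc13, Desi2, Mdm4 and Skil. Xpo7, a nuclear export receptor, had 153 RPM after HP1alpha, 89.4 after HP1beta and 79.5 after HP1gamma knock-down, ratios of 1.71 (1.57 to 1.87) and 1.92 (1.74 to 2.12). Usp9x, a deubiquitinase, had 44.4, 26.9 and 16.3, and Mdm4, an inhibitor of p53, had 280, 176 and 117 in the HP1alpha, HP1beta and HP1gamma libraries. Skil, a repressor of TGF-beta signalling, had 77.2, 48.4 and 37.4. The HP1gamma library was the lowest for each of these 4 genes. Pan3, part of a deadenylase complex, had ratios of 1.66 to HP1beta and 1.82 to HP1gamma, and Eri2, an exonuclease family member, 1.65 and 1.77. By the same rule 7 of the 27 genes, Usp9x and Mdm4 among them, were lower in the HP1gamma library than in both others. Without the reads that fit neither isoform 17 of the 27 passed and 10, with Eri2 and Mdm4 among them, did not.

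The ratios moved with the genomic span of the gene. The median ratio of the HP1alpha to the HP1gamma library was 0.923 in the 913 genes with the shortest span and 1.09 in the 913 with the longest, and to HP1beta it was 0.970 and 1.05. The HP1beta over HP1gamma ratio ran the same way, at 0.961 and 1.05. Of the 27 higher genes 14 were among the 913 longest, with a median span of 65182 bases against 27924 over all 3651 genes. When each library was scaled by the median ratio of genes of like span, a choice made after the data were seen, 10 of the 27 passed and Cbx5 and Ankrd35 still did.

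Among 31 HP1 partners and heterochromatin genes with an event, 0 passed the rule of size in either direction. Their ratios of the HP1alpha library ran between 0.855 and 1.45 to HP1beta, with a median of 1.16, and between 0.778 and 1.91 to HP1gamma, with a median of 1.33, beside medians of 1.02 and 1.03 over all genes. Their median span was 48183 bases, longer than over all genes, and the part of span in these medians was not tested. Adnp, a partner of HP1 in silencing complexes, had 85.2, 64.7 and 44.5 RPM in the HP1alpha, HP1beta and HP1gamma libraries, and Atrx, a chromatin remodeller of heterochromatin, 59.4, 47.9 and 35.5. Ehmt2, which methylates lysine 9 of histone H3, had 232, 245 and 298, and Suv39h2, which acts on the same residue at pericentric repeats, 91.1, 85.3 and 76.0. Each of these genes had its HP1beta value between the other libraries. The 4 genes of the list of DNA methyltransferases and TET enzymes had no common order. Dnmt3b had 244, 222 and 171 RPM in the HP1alpha, HP1beta and HP1gamma libraries, and Tet2 53.4, 41.8 and 22.2. Dnmt3l, a cofactor of Dnmt3a and Dnmt3b, had 267, 289 and 314, and Dnmt3a 113, 138 and 78.0. Of 31 core spliceosome genes 1 was higher by the rule, beside 0.74% of all genes. It was Prpf8, the scaffold of the catalytic centre, with 208 RPM after HP1alpha, 135 after HP1beta and 86.2 after HP1gamma knock-down, and it was also lower in the HP1gamma library than in both others by the same rule.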

How the data were processed

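Per the submitters' processing notes, reads were handled with TopHat2 and Bowtie2 on mm10; versions and settings were not stated there. Per the file headers, the files are MISO skipped-exon summaries with deposited inclusion levels (a fraction from 0 to 1), interval bounds of unstated level, and counts of reads per class; every deposited event held at least 100 reads. The authors pooled both replicates of each group. Events were joined by coordinates and given symbols from RefSeq GRCm38.p6 gene spans (10522 in 1 gene, 248 in none, 103 in several). Whether an exon is coding was not looked up.

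Inclusion-only and skipping-only read counts were compared by Fisher's exact test (two-sided) with Benjamini-Hochberg adjustment (scipy 1.17.1, Python 3.11.15), and as an alternative with limma 3.58.1 in R 4.3.3. Fisher's test treats reads as independent and takes no account of replicate spread, so its p-values cover counting error in these libraries. Event reads per gene were those of the event with most reads, scaled to the library total over the 7053 events (RPM). The scripts were tested on simulated data. Exons were named if they lay at least 0.1 beyond both other libraries (12 per direction by smallest p), had an unadjusted p of at most 0.05 against each, passed an adjusted p, or led a gene list; some with an interval apart from both, such as Plec and Crkl, were chosen after their values were seen. Genes were named by rule of size (8 per direction), others after their values were seen. The members and lists were chosen with earlier results of these data known.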

Additional observations from a re-analysis of the deposited data

How the results depend on the processing

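No paired analysis was possible because both replicates of each group were pooled into 1 file before deposit. Called exons numbered 0 higher in the main comparison, and 1 with limma or without the HP1gamma library, Immt in both cases. They numbered 0 lower, and 1 with a level difference of at least 0.05, at an adjusted p alone or by the difference in read share, Tpt1 each time. The 10 exons apart from each library became 1 at a level difference of 0.2. HP1beta calls numbered 1, but 2 with at least 50 reads per side and 4 at an adjusted p alone, and HP1gamma calls 0, but 1 with at least 10 reads and 4 at an adjusted p alone. The median log2 odds ratio of -0.13 was 0.016 with at least 5 reads of each class, 0.17 without the HP1beta and 0.062 without the HP1gamma library. The Cbx5 ratio of 0.404 was 0.282 (0.180 to 0.426) with distinguishing reads only and 0.282 without reads that fit neither isoform; that last setting was added after the data were seen. Lower genes numbered 2, but 20 at 1.3-fold, 1 at 2-fold, 9 without the HP1beta library, 6 without the HP1gamma library and 7 without reads that fit neither isoform, with Cbx5 among them each time; Ankrd35 was lost at 2-fold and without reads that fit neither isoform. Higher genes numbered 27, but 199 at 1.3-fold, 0 at 2-fold, 16 scaled by the median ratio, 268 without the HP1beta library, 63 without reads that fit neither isoform, of which 17 were among the 27, and 10 scaled by gene span (also added later). The causes were not tested. The other 34 values kept their direction or stayed within 1.5 times the main count.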
